A study of Mus musculus with 4 samples.

Results

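The genes described here encode proteins of DNA replication and cell division, measured on Affymetrix arrays that read the 3' ends of transcripts in mouse heart. They were chosen by symbol, 39 genes in all, and divided by role into 18 genes of S phase and 21 of mitosis. The mitosis class covers G2 and M phase and includes the cyclin A gene Ccna2. Of these, 38 were measured, 18 of S phase and 20 of mitosis, out of 18193 genes on the arrays, and Ccnb1 was not analysed here. For each gene the value is that of 1 probe set, a group of short probes for a transcript, namely the one with the highest mean over the arrays among those assigned to that symbol alone. The samples were 2 heart samples of genotype GSK-3beta S9A at an age of 3.5 months, called knock-in, and 2 wildtype heart samples at 3.6 months, called wild-type, all labelled strain C57B6 and taken at baseline. The knock-in replaces an inhibitory serine of the kinase GSK-3beta with alanine, so that phosphorylation of that serine can no longer switch the kinase off. The labels give neither the zygosity of the knock-in nor say that each sample is a different animal, so the spread behind every p-value below may be purely technical.

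A cell that prepares to divide first assembles the MCM helicase on replication origins, then copies its DNA in S phase under cyclin E, cyclin A and CDK2, and finally separates the copies in mitosis under cyclin B and CDK1. S phase genes are largely driven by E2F transcription factors, whereas many mitosis genes are switched on later through an element named CHR (cell cycle genes homology region), often together with CCAAT boxes, and are held down in resting cells by a repressor complex called DREAM. In the adult heart nearly all cardiomyocytes have left the cell cycle, and dividing cells are mostly found among other cell types.

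Promoters of both classes are shown because these elements were searched in sequence alone, without the array values. Promoter windows of 300 bases, 250 before and 50 from the transcription start on, were found in RefSeq (GRCm38.p6) for 31 of the 38 measured genes, all but Ccne2, Mcm4, Gmnn, Ccna2, Aurkb, Foxm1 and Kif20a. The 160 bases before the start are printed 5′ to 3′ for 3 genes of each class, with matches to an E2F motif, the CHR or a CCAAT box in capitals. Mcm5 lies at chr8:75109349-75109508 on the plus strand, Mcm6 at chr1:128359706-128359865 on the minus strand and Pcna at chr2:132253181-132253340 on the minus strand. Cdk1 lies at chr10:69352913-69353072, Cdc20 at chr4:118437344-118437503 and Top2a at chr11:99024190-99024349, all on the minus strand.
Mcm5: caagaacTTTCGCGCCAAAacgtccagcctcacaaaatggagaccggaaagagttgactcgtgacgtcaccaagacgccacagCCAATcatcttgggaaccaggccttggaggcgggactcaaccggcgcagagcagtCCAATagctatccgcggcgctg
Mcm6: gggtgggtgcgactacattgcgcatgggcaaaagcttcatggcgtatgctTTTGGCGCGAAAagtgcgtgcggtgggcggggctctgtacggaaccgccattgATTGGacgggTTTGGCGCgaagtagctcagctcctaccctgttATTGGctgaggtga
Pcna: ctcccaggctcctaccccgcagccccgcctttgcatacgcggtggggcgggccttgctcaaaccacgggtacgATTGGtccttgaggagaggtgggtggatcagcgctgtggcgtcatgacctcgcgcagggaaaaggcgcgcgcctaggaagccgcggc
Cdk1: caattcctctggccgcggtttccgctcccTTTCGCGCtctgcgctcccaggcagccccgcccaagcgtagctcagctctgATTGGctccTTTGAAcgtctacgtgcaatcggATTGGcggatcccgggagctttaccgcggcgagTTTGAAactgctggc
Cdc20: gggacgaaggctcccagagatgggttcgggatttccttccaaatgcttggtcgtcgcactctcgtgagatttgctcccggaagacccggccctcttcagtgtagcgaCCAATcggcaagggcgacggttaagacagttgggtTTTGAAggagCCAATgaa
Top2a: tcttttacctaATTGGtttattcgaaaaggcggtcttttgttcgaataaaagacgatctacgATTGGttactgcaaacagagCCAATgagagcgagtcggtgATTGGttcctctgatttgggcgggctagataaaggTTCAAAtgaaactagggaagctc
The first 3 encode 2 helicase subunits and the sliding clamp of replication. The other 3 encode the mitotic kinase, an activator of the anaphase-promoting complex and topoisomerase II alpha.

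The E2F motif was searched as TTTGGCGC or TTTCGCGC, the CHR as TTTGAA and the CCAAT box as CCAAT, each on both strands. In the Mcm5 and Mcm6 promoters an E2F match on one strand overlapped a match on the other, and these were counted as 1 promoter with a match. An E2F match was present in 5 of 15 S phase promoters (33.3%; Cdt1, Mcm3, Mcm5, Mcm6 and Mcm7), 1 of 16 mitosis promoters (6.25%; Cdk1) and 0.833% of all 27025 promoters in the table. A CHR match was present in 1 of 15 S phase promoters (6.67%; Mcm2), 12 of 16 mitosis promoters (75.0%) and 18.1% of all promoters. CCAAT matches were present in 9 of 15 S phase promoters (60.0%), 14 of 16 mitosis promoters (87.5%) and 37.9% of all promoters. The Cdk1 promoter was the only one of the 31 with both an E2F and a CHR match. A match is a description of letters, not evidence that a factor binds there, and 7 of the 31 windows held none of the 3 motifs.

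**Figure D1:**
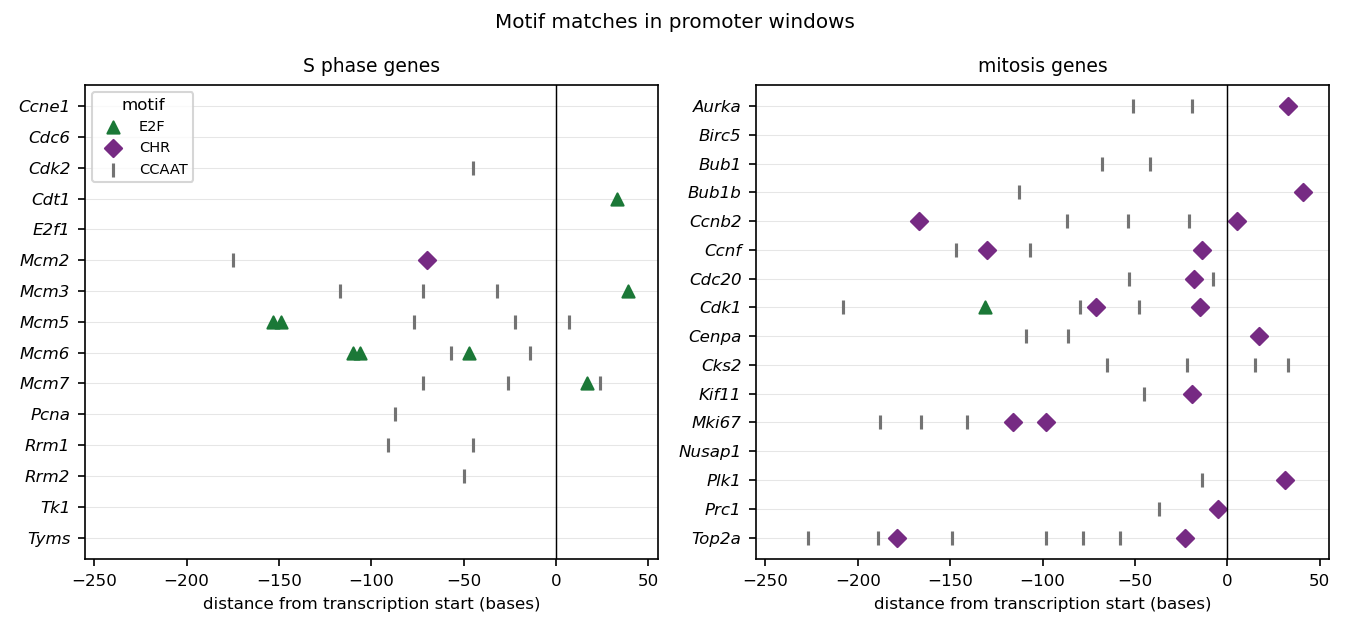
Positions of E2F, CHR and CCAAT matches (markers) in bases from the transcription start, for the 15 S phase (left) and 16 mitosis promoters (right). E2F matches lie in 5 S phase promoters and CHR matches in 12 mitosis promoters.

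The values are log2 expression values made with RMA, which corrects background, equalises the distributions of the arrays and combines the probes of a probe set. The median probe set of an array was between 5.97 and 6.04. All 10 cardiomyocyte markers lay above the background line defined below, as did 8 of 9 macrophage, 9 of 9 fibroblast and 9 of 9 endothelial markers. All 10 cardiomyocyte markers were also higher in knock-in hearts (median 0.06, 6 without overlap), as were 56.5% of all genes above the line. Of 7 smooth muscle and pericyte markers 6 were lower (median -0.06), with 3 lower and 1 higher without overlap. Among all genes, 19.6% were higher without overlap and 17% lower. Gsk3b itself was at 9.82 and 9.87 in the knock-in arrays, against 9.62 and 9.72 in wild-type, a difference of 0.18 that was -0.17 with averaged probe sets. An array of transcripts cannot check the amino acid change. All 9 measured liver markers were higher in knock-in hearts, with summed linear signals of 1356 and 2328 in the knock-in arrays against 770 and 544 in the wild-type arrays, and their part in the results below was not tested. All 8 measured lymphocyte markers were lower, with summed signals of 692 and 659 against 780 and 710, and 2 of the 8 lay above the background line. The 8 measured erythroid markers summed to 2962 and 4248 against 2139 and 1541, with a median difference of 0.04. Tfrc, the transferrin receptor that muscle also makes, was 2.62-fold higher (log2 difference 1.39, and 0.68 with the probe set listed first), and the other 7 erythroid markers summed to 784 and 970 in the knock-in arrays against 875 and 716 in the wild-type arrays. With 2 arrays in each genotype the smallest possible p of an exact permutation test is 0.333, so tests relied on limma, which pools the spread over all 18193 genes.

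Most of the proliferation genes, and all but 2 of the measured mitosis genes, lay at or below a background line set from genes that heart is not known to transcribe. RMA gives no detection call, so this line was set at the 90th percentile of 42 measured reference genes of retina, lens, ear, testis, ovary, pituitary, brain, pancreas, mammary gland and enamel, which was 6.79 on the log2 scale. Above it lay 54.5% of all genes, 8 of 18 S phase genes (44.4%) and 2 of 20 mitosis genes (10.0%), so that 28 of the 38 members were near background. The 8 S phase genes above the line were Cdk2, Mcm2, Mcm4, Mcm6, Mcm7, Pcna, Rrm1 and Gmnn, and the 2 mitosis genes were Cenpa and Foxm1. The member just above it was Cdk2 at a mean of 7.04 over the 4 arrays, and those just below were Cdt1 at 6.59 and Mcm5 at 6.53. Probe sets differ in how strongly they bind, so a place near background does not show that a transcript is absent, and levels of different genes were not compared. In whole-heart RNA, fewer cells of a type and less RNA per cell cannot be told apart. With the line at the median of the reference genes, 5.15, only 10 members stayed at or below it, so the count depends on where the line is drawn. It also depends on the probe set used, with 31 members near background for averaged probe sets and 29 for the probe set listed first. Of the 85 probe sets of the members, 15 lay above the line.

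**Figure D2:**
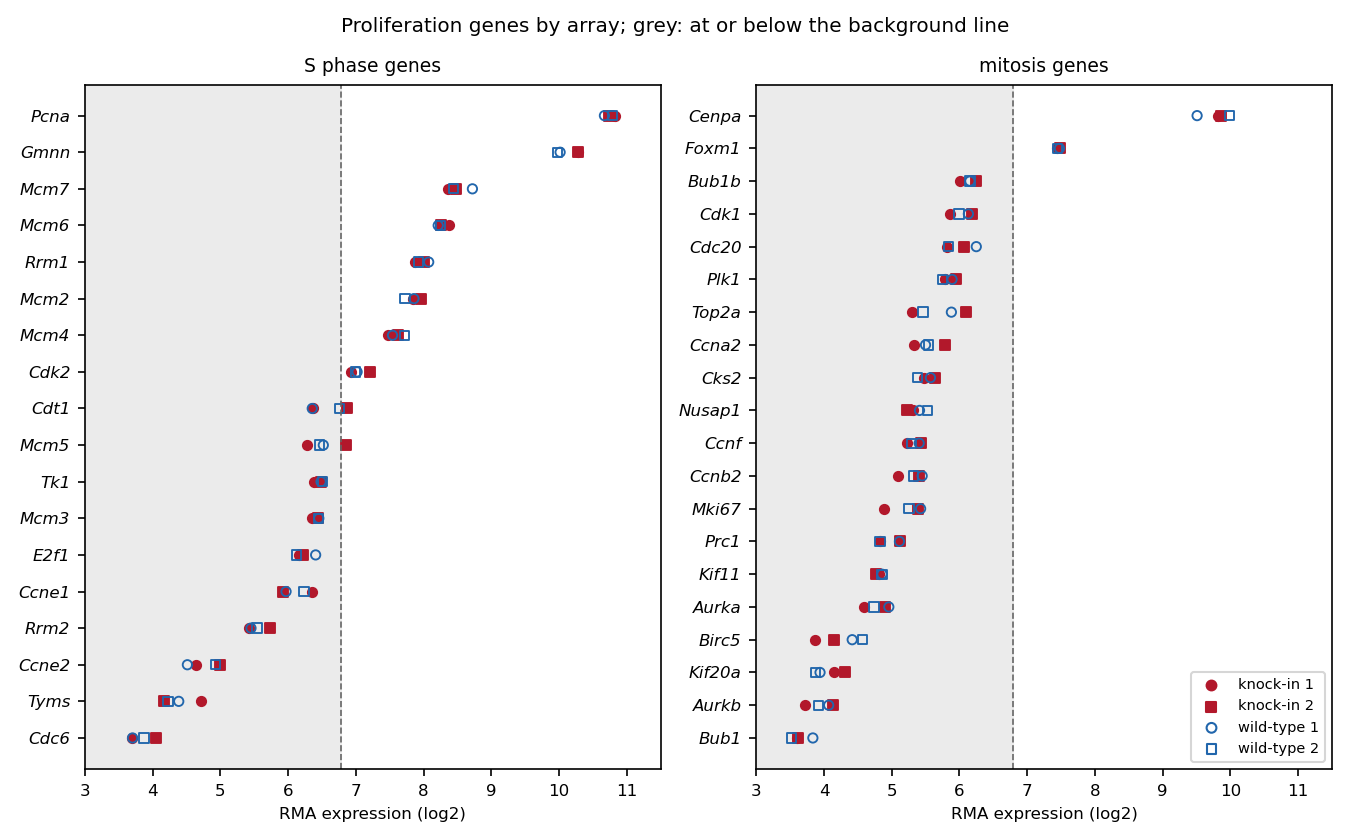
RMA expression (log2, x axis) of each of the 18 S phase genes (left) and 20 mitosis genes (right) in the 2 knock-in arrays (filled) and 2 wild-type arrays (open). The grey area ends at the background line of 6.79, with 10 S phase and 18 mitosis genes inside it by their means over the 4 arrays.

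No S phase or mitosis gene passed the limma test after Benjamini-Hochberg adjustment over all genes, where 0.0055% of all genes passed, a single gene. Before adjustment, limma gave a p under 0.05 for 3 members (7.89%), namely Gmnn, Kif20a and Birc5, against 7.39% of all genes. Gmnn and Kif20a were higher, where 4.4% of all genes were, and Birc5 was lower, where 2.99% were. The arrays of the 2 genotypes did not overlap in 43.1% of genes above the background line and 28.6% of those at or below it. Among the members they did not overlap in 6 of 28 near background (21.4%) and in 2 of 10 above the line. In all, this held for 8 members (21.1%), against 36.5% of all genes. Of these, 3 were higher in the knock-in arrays (Gmnn, Mcm6 and Kif20a), where 19.6% of all genes were, and 5 were lower (Mcm3, Tk1, Birc5, Kif11 and Nusap1), where 17% of all genes were. The unadjusted 95% confidence intervals of the differences reached at the furthest -0.80 for Birc5 and 0.68 for Top2a, so a 2-fold change of any of the 38 probe set signals lay outside its interval. For the 28 members near background, these intervals do not bound the change of the transcript itself. For the 10 members above the background line they reached -0.47 for Mcm7 and 0.52 for Gmnn.

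**Figure D3:**
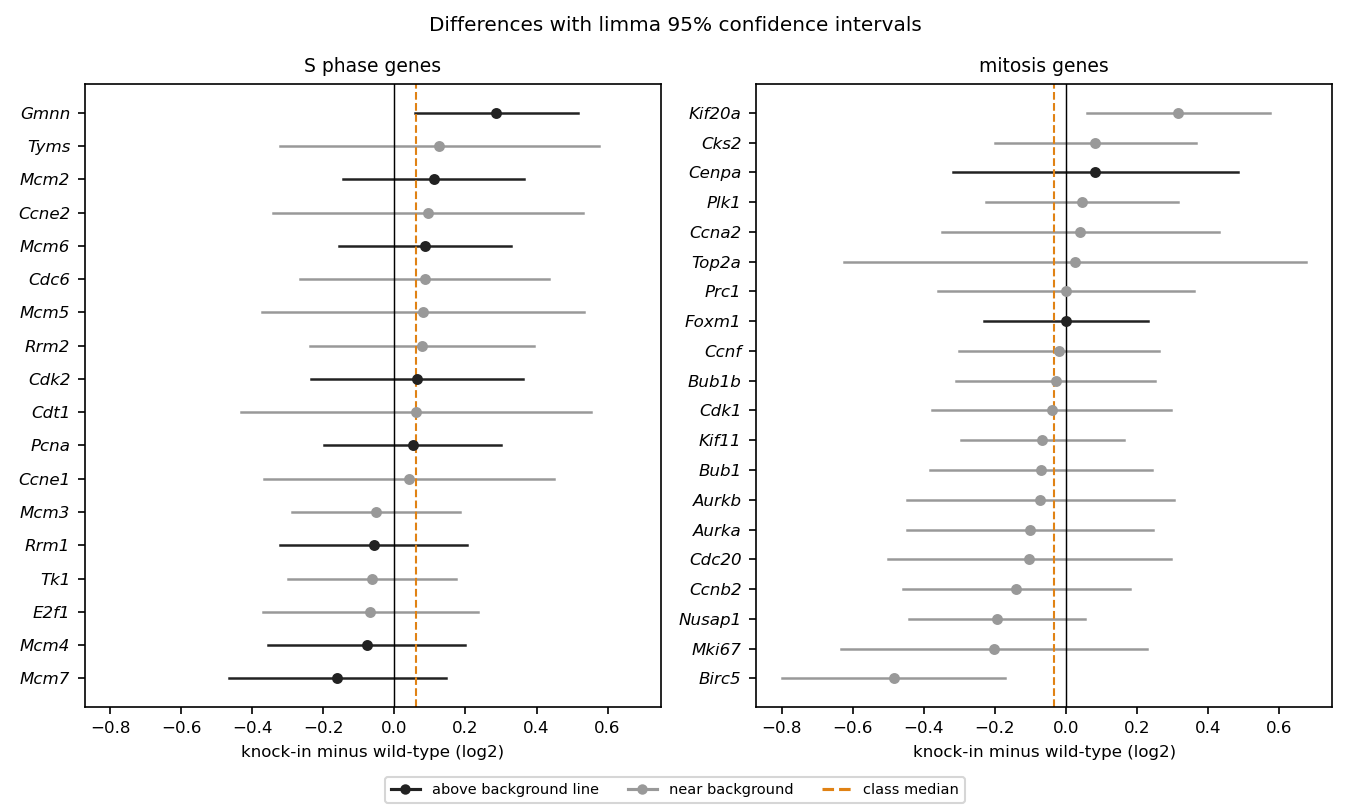
Knock-in minus wild-type difference (log2, points) with the unadjusted limma 95% confidence interval (lines) for the S phase genes (left) and mitosis genes (right), dark where the gene lay above the background line. The intervals of all genes but Gmnn, Kif20a and Birc5 include 0, and the dashed lines mark class medians of 0.06 and -0.03.

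Among Gmnn, Cdt1 and Cdc6, which control helicase loading on replication origins, the arrays did not overlap for Gmnn with the probe sets used. Gmnn encodes the Cdt1 inhibitor geminin. Gmnn was at 10.28 and 10.28 in the knock-in arrays and at 10.02 and 9.97 in the wild-type arrays. Both knock-in values lay above both wild-type values, a 1.22-fold difference (log2 difference 0.29, 95% interval 0.06 to 0.52, limma adjusted p = 0.557). It had a single probe set, and the difference ran from 0.25 to 0.32 over the alternative fits. Cdt1, the loading factor that geminin blocks, was at 6.37 and 6.87 in the knock-in arrays and at 6.36 and 6.76 in the wild-type arrays, so that the arrays within each genotype were further apart than the genotypes. Cdc6, its partner in loading the helicase, was near background and differed by 0.08. The other Cdt1 probe sets, near background, differed by -0.06, lower in both knock-in arrays, and by -0.15 with overlap.

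The 6 subunits of the MCM helicase had differences in both directions, none of which passed. Mcm2 was at 7.85 and 7.96 in the knock-in arrays and at 7.86 and 7.73 in the wild-type arrays, Mcm6 at 8.38 and 8.26 against 8.22 and 8.25, and Mcm7 at 8.36 and 8.48 against 8.72 and 8.45. Only Mcm6 had knock-in values that all lay above the wild-type ones, by a narrow margin, and its log2 difference was 0.09. Mcm4 was at 7.48 and 7.63 in the knock-in arrays and at 7.54 and 7.72 in the wild-type arrays, which overlapped. Mcm3 and Mcm5 were near background and were represented by probe sets of the x_at kind, in which some probes can also bind other transcripts. Mcm3 was at 6.35 and 6.44 in the knock-in arrays and at 6.45 and 6.45 in the wild-type arrays. Both knock-in values were lower, also by a narrow margin, with a log2 difference of -0.05. The other Mcm3 probe sets, all near background, overlapped by genotype, with differences from -0.14 to 0.08. Over the 6 subunits 3 differences were above 0 and 3 below, from -0.16 for Mcm7 to 0.11 for Mcm2. Other Mcm7 probe sets differed by -0.04 and 0.01 above the line and by 0.20 near background, and the averaged difference was 0.0026. A further probe set of Mcm2, also above the line, was at 7.21 and 7.47 in the knock-in arrays and at 6.97 and 7.01 in the wild-type arrays, a difference of 0.35 that the probe set used for Mcm2 did not match.

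None of the clamp and the enzymes that supply DNA precursors passed the test. Pcna, the sliding clamp that holds DNA polymerase on its template, was at 10.82 and 10.73 in the knock-in arrays and at 10.67 and 10.79 in the wild-type arrays. The groups overlapped, and the difference of 0.05 had an interval from -0.20 to 0.30. Rrm1, the large subunit of ribonucleotide reductase, was at 7.88 and 8.01 in the knock-in arrays and at 8.08 and 7.93 in the wild-type arrays, again overlapping. Rrm2, its small subunit, was near background with a difference of 0.08, while its 2 other probe sets, dimmer still, differed by 0.30 each with both knock-in arrays above both wild-type arrays. Thymidylate synthase, Tyms, was near background in all 4 of its probe sets, whose differences ran from -0.28 to 0.14. Thymidine kinase 1, Tk1, was at 6.39 and 6.48 against 6.49 and 6.50, lower in both knock-in arrays by a log2 difference of -0.06.

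Of the regulators that start S phase, Cdk2 was the one above the background line. Cdk2, the kinase partner of cyclins E and A, was at 6.93 and 7.21 in the knock-in arrays and at 7.02 and 6.99 in the wild-type arrays. The wild-type values lay between the knock-in ones, and the difference was 0.06. The cyclin E genes Ccne1 and Ccne2 and the transcription factor gene E2f1 were near background, with differences of 0.04, 0.09 and -0.07, and in each the groups overlapped.

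Among mitosis genes the 2 above the background line did not separate by genotype. Foxm1, a transcription factor of G2 and mitosis, was at 7.44 and 7.48 in the knock-in arrays and at 7.48 and 7.45 in the wild-type arrays. Its range over the 4 arrays, 0.04, was the narrowest of the 38 members, and its interval ran from -0.23 to 0.23. Another Foxm1 probe set above the line ran from 6.73 in wild-type 2 to 7.07 in wild-type 1, with a difference of 0.02. The remaining Foxm1 probe sets were near background, with differences of -0.08 and -0.10. Cenpa, the histone H3 variant of centromeres, was at 9.81 and 9.85 in the knock-in arrays and at 9.51 and 9.99 in the wild-type arrays, so both knock-in values lay between the wild-type ones. The other Cenpa probe sets were near background, with differences of -0.13 and -0.02.

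The remaining 18 mitosis genes were near background, and 2 of them (11.1%) reached an unadjusted limma p under 0.05, in opposite directions, against 4.74% of all genes at or below the background line. Birc5, which encodes survivin, a subunit of the chromosomal passenger complex with Aurora B, was at 3.87 and 4.14 in the knock-in arrays and at 4.42 and 4.57 in the wild-type arrays. Both knock-in values were lower, by a log2 difference of -0.49 (interval -0.80 to -0.17, limma adjusted p = 0.432). Kif20a, a kinesin of cytokinesis, was at 4.14 and 4.31 in the knock-in arrays and at 3.94 and 3.88 in the wild-type arrays. Both knock-in values were higher, by 0.32 (interval 0.06 to 0.57, limma adjusted p = 0.562). Each had a single probe set, and all 8 of these values lay below the median of the reference genes, 5.15.

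Genes of the spindle, its checkpoint and the mitotic kinases showed small differences at low signal. Kif11, the motor that keeps spindle poles apart, was at 4.81 and 4.77 in the knock-in arrays and at 4.86 and 4.86 in the wild-type arrays, lower in both knock-in arrays by a log2 difference of -0.07. Its 2 other probe sets were also lower in both knock-in arrays, by -0.21 and -0.19. Nusap1, which binds spindle microtubules, was at 5.32 and 5.23 against 5.41 and 5.52, a difference of -0.19 (limma adjusted p = 0.742), with 0.01 in its other probe set. The midzone protein gene Prc1 differed by 0.00 and the spindle checkpoint genes Bub1 and Bub1b by -0.07 and -0.03. The kinase genes Plk1, Aurka and Aurkb differed by 0.04, -0.10 and -0.07. In these last 6 genes the groups overlapped.

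The same held for the genes most used as marks of dividing cells. Mki67, whose protein coats mitotic chromosomes, was at 4.88 and 5.39 in the knock-in arrays and at 5.43 and 5.25 in the wild-type arrays. Top2a, which untangles sister chromatids, was at 5.30 and 6.09 in the knock-in arrays and at 5.88 and 5.46 in the wild-type arrays. In both genes the 2 knock-in arrays were further apart than the means of the genotypes, which differed by -0.20 for Mki67 and 0.03 for Top2a. The cyclin genes Ccna2, Ccnb2 and Ccnf differed by 0.04, -0.14 and -0.02, Cdk1 by -0.04, the anaphase activator Cdc20 by -0.10 and the CDK subunit Cks2 by 0.08 (-0.23 in its other probe set). All 6 had overlapping groups.

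Set side by side, the S phase genes had a median difference slightly above 0 and the mitosis genes one slightly below it, and their order depended on single arrays. Differences were above 0 in 12 of 18 S phase genes and in 7 of 20 mitosis genes, against 50.2% of all genes. The share was 56.5% among genes above the background line and 42.7% among those at or below it. The median difference was 0.06 for S phase and -0.03 for mitosis, a gap of 0.10 between the classes. Over all genes the median was 0.0002, with 0.02 for genes above the background line and -0.02 for those at or below it. The pooled SD within genotypes of the arrays' median deviations was 0.06 for S phase, 0.14 for mitosis and 0.09 for the gap. Leaving out knock-in 1 turned the gap to -0.07 and leaving out wild-type 1 to -0.01, while it was 0.06 without knock-in 2 and 0.17 without wild-type 2. The mitosis median was 0.0042 with each array centred on its median and 0.09 without knock-in 1, and the S phase median was -0.09 without knock-in 2. Over the members above the background line alone the medians were 0.06 for 8 S phase genes and 0.04 for 2 mitosis genes. With Ccna2, Ccnf, Rrm2 and Gmnn left out of the classes, the gap was 0.11. Of the 27 members with several probe sets, 17 had probe sets on both sides of 0.

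The mitosis genes also differed together between the arrays of 1 genotype. Knock-in 1 was below knock-in 2 in 18 of 20 mitosis genes, against 53.9% of all genes and 44.8% of genes at or below the background line, and in 13 of 18 S phase genes (72.2%). Knock-in 1 was the lowest of the 4 arrays in 13 of 20 mitosis genes, and in 22.5% of all genes. Wild-type 1 was above wild-type 2 in 14 of 20 mitosis genes, against 58.5% of all genes and 68.6% of those at or below the line. As deviations from each gene's mean over the 4 arrays, the medians over mitosis genes were -0.14 in knock-in 1, 0.10 in knock-in 2, 0.08 in wild-type 1 and -0.04 in wild-type 2, and over S phase genes -0.09, 0.04, -0.03 and -0.01 in the same order. The summed linear signal of 9 endothelial markers had the same order of arrays as the mitosis genes, with 10062 in knock-in 1, 11394 in knock-in 2, 11344 in wild-type 1 and 10575 in wild-type 2. That list was picked out of 8 marker lists after its values had been seen, and its part in the result was not tested. Knock-in 1 was below knock-in 2 in 8 of 9 endothelial, 9 of 9 macrophage, 9 of 9 liver and 7 of 9 fibroblast markers. The counts were 6 of 10 cardiomyocyte, 5 of 8 lymphocyte, 5 of 8 erythroid and 3 of 7 smooth muscle and pericyte markers. Among all genes above the background line the share was 61.5%. In the other mitosis genes described next, knock-in 1 was below knock-in 2 in 31 of 53 (58.5%).

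**Figure D4:**
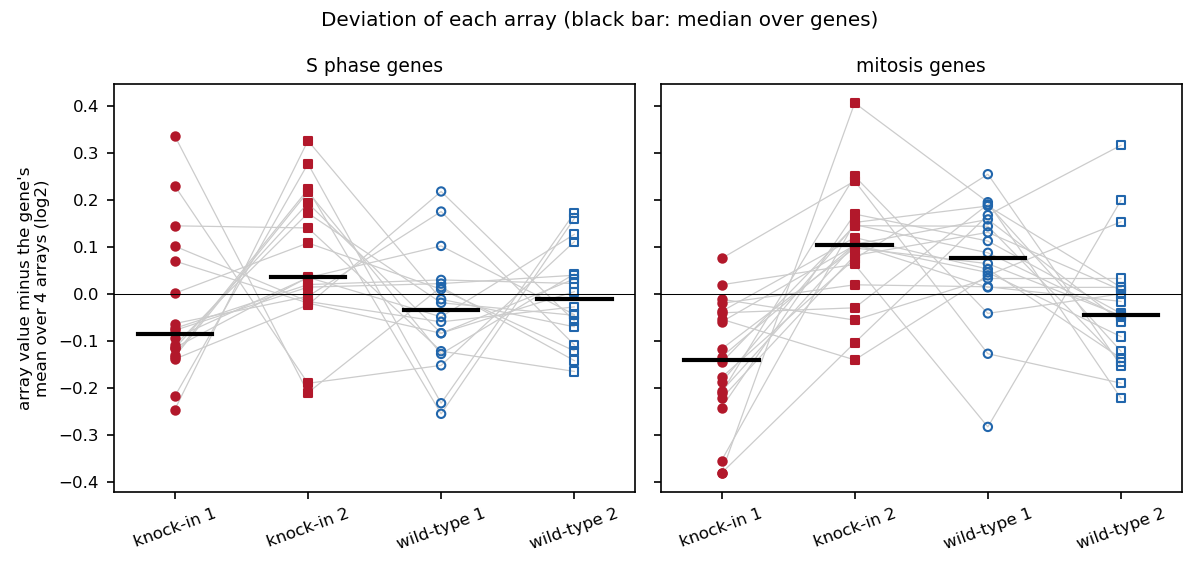
Deviation of each array from a gene's mean over the 4 arrays (log2, y axis) for the S phase genes (left) and mitosis genes (right), with thin lines joining the values of a gene and black bars at the medians. In mitosis genes knock-in 1 lies lowest, with a median of -0.14, and knock-in 2 highest, at 0.10.

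Further genes of the same processes gave a like picture, with 0 of 45 other replication genes and 0 of 53 other mitosis genes passing the limma test in either direction. Before adjustment, limma put 0 of the replication genes and 2 of the mitosis genes (3.77%) under 0.05, against 7.39% of all genes. That share was 9.6% among genes above the background line and 4.74% among those at or below it. The medians of the differences were 0.01 for these replication genes and -0.0011 for these mitosis genes. Above the background line lay 23 of the 45 replication genes (51.1%) and 11 of the 53 mitosis genes (20.8%). Cenpf, a kinetochore protein of G2 and mitosis, was at 7.83 and 7.97 in the knock-in arrays and at 8.71 and 8.42 in the wild-type arrays, above the line in all 4. Both knock-in values were lower, by a log2 difference of -0.67 or 1.59-fold (interval -0.98 to -0.35, limma adjusted p = 0.306), and the difference ran from -0.81 to -0.30 over the alternative fits. The kinetochore genes Ndc80 and Spc24 differed the other way, by 0.26 and 0.25, and Racgap1, needed for cytokinesis, by 0.31. Of these, Spc24 lay above the background line, while Ndc80 and Racgap1 were near background. The Racgap1 difference was 0.10 with the probe set listed first, 0.15 with averaged probe sets, 0.48 without knock-in 1 and 0.14 without knock-in 2. Of the replication genes, those of smallest p were Rpa3, a subunit of the single-strand binding protein, and the origin recognition gene Orc3, higher in both knock-in arrays by 0.22 and 0.23, the repair gene Brca1 with -0.29 and Dscc1 with 0.23, none of which passed (limma adjusted p from 0.688 to 0.710). Rpa3 and Orc3 lay above the background line, while Brca1 and Dscc1 were near background. With averaged probe sets Orc3 differed by 0.08, Brca1 by -0.03 and Dscc1 by 0.15, and with the probe set listed first Brca1 differed by -0.16. Without knock-in 1 Brca1 differed by -0.44 and Dscc1 by 0.13, and without knock-in 2 Brca1 differed by -0.14.

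None of the 27 genes of G1 cyclins, kinases and pocket proteins passed. Before adjustment 2 of them (7.41%), both higher in knock-in hearts, were under 0.05 in limma, a share near the 7.39% of all genes. Wee1, a kinase that inhibits CDK1 and is also under clock control, was at 8.09 and 8.03 in the knock-in arrays and at 7.39 and 7.77 in the wild-type arrays. Ccnd1, which encodes cyclin D1, was at 10.69 and 11.08 in the knock-in arrays and at 10.60 and 10.41 in the wild-type arrays. Both knock-in values lay above both wild-type values in each, with differences of 0.48 for Wee1 (limma adjusted p = 0.514) and 0.38 for Ccnd1 (0.667). The Wee1 difference was 0.29 without wild-type 1. That of Ccnd1 was 0.57 without knock-in 1, 0.18 without knock-in 2 and 0.18 with the probe set listed first. Ccnd2 differed by 0.25, which was 0.42 without knock-in 1 and 0.09 without knock-in 2. The phosphatase gene Cdc25a differed by 0.18, which was -0.22 with the probe set listed first, -0.01 with averaged probe sets and 0.09 without knock-in 2. The median over the 27 genes was 0.03.

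The CDK inhibitor p21, encoded by Cdkn1a, holds cells back from S phase by inhibiting CDK2, and was the single gene on the arrays to pass. Cdkn1a was at 9.06 and 8.98 in the knock-in arrays and at 10.63 and 10.76 in the wild-type arrays, 3.19-fold lower in knock-in hearts (log2 difference -1.67, limma adjusted p = 0.0434). The call was lost without any 1 array (limma adjusted p from 0.151 to 0.408), with the replicate number as a block (limma adjusted p = 0.420) and with the probe set listed first (limma adjusted p = 0.0706). It was kept in the other 5 alternatives, with a limma adjusted p from 0.00176 to 0.0150. The log2 difference ran from -1.74 to -1.61 without 1 array. The other 6 CDK inhibitor genes did not pass, and those of smallest p had log2 differences of 0.22 for Cdkn2d, -0.24 for Cdkn1c and -0.17 for Cdkn1b. Without 1 array Cdkn1c ran from -0.35 to -0.12 and Cdkn1b from -0.30 to -0.04. Beside this difference, the 8 S phase genes above the background line had differences from -0.16 to 0.29.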

How the data were processed

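The deposited values were log2 expression values of 4 arrays. The submitters' processing notes name RMA and Affymetrix Expression Console, with no version given. RMA's quantile step makes the arrays' distributions alike, so a change shared by most genes would be removed. The number of arrays limits the precision.

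Of 45101 probe sets, 34945 had 1 gene symbol in the platform annotation, 932 several, 9160 none and 64 were controls. Current symbols came from RefSeq by Entrez number for 34741 probe sets, which left 18193 genes. One probe set each of Tyms and Foxm1 was left out because it names several genes. Groups and replicate numbers came from sample titles. Differences were fitted in R 4.3.3 with limma 3.58.1 (lmFit, eBayes) over all genes, two-sided, with Benjamini-Hochberg adjustment at 0.05, and the fit was tested on simulated data. No filter on dim genes was applied.

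Members, classes, lists, motifs and the background reference genes were chosen with earlier results of these data known. Values per array are given for members above the background line, for those with an unadjusted limma p under 0.05 or for those whose arrays did not overlap by group with a difference of at least 0.3, and for further members chosen after their values were seen. Each other pathway list is described by up to 4 genes of smallest p. Deviations of same-numbered arrays correlated at -0.03 across genes, so the numbers were not taken to pair the samples. Alternatives comprised a replicate block, a robust prior with an intensity trend, centred arrays, quantile normalization, other probe set choices, genes above the median alone, other class members and background lines, and leaving out each array.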

Additional observations from a re-analysis of the deposited data

How the results depend on the processing

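No member passed over all genes under any of the 11 alternative fits. Over all genes 1 passed, 22 under a robust prior with intensity trend, 11 with arrays centred, 11 after quantile normalization, 11 with averaged probe sets, 7 among genes above the median, and 0 with the first probe set, with the replicate block and without any 1 array. At an unadjusted limma p under 0.05 the replicate block left 1143 genes and 3 members. The 2 numbers are shared only as labels, and the block changed the sign of no member. Of the 132 other pathway genes 1 passed, Cdkn1a, and 0 with the replicate block, with the first probe set or without any 1 array. Its difference was -1.67 with the block (limma adjusted p = 0.420) and -1.35 with the first probe set (0.0706). Members with arrays apart by genotype numbered 8 of 38, against 36.5% of all genes. They numbered 4 after quantile normalization and 2 of the 9 members among genes above the median. Without 1 array, where 1 array stands against 2, they numbered 15 to 30. Shares of all genes under these alternatives are not given here, so no result about the members is read from these counts. Members near background numbered 28, 33 with the line at the highest reference gene and 10 with it at their median. Without 1 array the S phase median ran from -0.0864 to 0.0509, the mitosis median from -0.149 to 0.0899 and their gap from -0.0728 to 0.173. The liver marker Fgb passed with the intensity trend (limma adjusted p = 0.0402). Of the 38 members, 29 changed sign in at least 1 alternative, and Mcm2, Mcm3, Mcm6, Tk1, Gmnn, Birc5, Kif11, Kif20a and Nusap1 in none. The causes were not tested. With each array centred on its median, the differences that changed sign were Ccnf 0.0194, Bub1b 0.0097 and Foxm1 0.0383. After quantile normalization, the differences that changed sign were Ccnf 0.0173, Bub1b 0.0033 and Gsk3a -0.0033. With averaged probe sets, the differences that changed sign were Mcm5 -0.0401, Mcm7 0.0026, Cdt1 -0.0479, Top2a -0.0392, Ccna2 -0.0669, Ccnf 0.0398, Aurkb 0.013, Cenpa -0.0204, Prc1 -0.0069, Cks2 -0.0747, Cdc25a -0.0104 and Gsk3b -0.17. With the first probe set, the differences that changed sign were Mcm5 -0.0538, Tyms -0.28, Top2a -0.16, Ccna2 -0.17, Foxm1 0.0197, Cenpa -0.0152, Prc1 -0.0138, Cks2 -0.23 and Cdc25a -0.22. Leaving out 1 array at a time, the differences that changed sign at least once ran as Ccne1 -0.17 to 0.25, Rrm1 -0.13 to 0.0142, Tyms -0.15 to 0.40, Mki67 -0.46 to 0.0517, Ccnb2 -0.29 to 0.0124, Ccnf -0.13 to 0.0887, Cdk1 -0.21 to 0.13, Cdc20 -0.31 to 0.10, Aurka -0.26 to 0.0557, Aurkb -0.28 to 0.13, Bub1b -0.15 to 0.0911, Foxm1 -0.0197 to 0.0197, Ccne2 -0.11 to 0.30, Cdk2 -0.0769 to 0.20, Mcm5 -0.21 to 0.37, Rrm2 -0.0765 to 0.23, Cdc6 -0.0908 to 0.26, Cdt1 -0.19 to 0.31, Top2a -0.37 to 0.42, Ccna2 -0.19 to 0.27, Plk1 -0.037 to 0.13, Prc1 -0.15 to 0.15, Pcna -0.0065 to 0.11, E2f1 -0.21 to 0.0744, Bub1 -0.23 to 0.0873, Cenpa -0.16 to 0.32, Gsk3a -0.0014 to 0.0837, Mcm4 -0.17 to 0.0092 and Cks2 -0.0115 to 0.18.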
